A study of Mus musculus with 16 samples.

Results

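The C-type lectin receptors described here are 10 genes of the myeloid branch of this family, Clec4a1, Clec4a2, Clec4a3, Clec4d, Clec4e, Clec4n, Clec5a, Clec7a, Clec12a and Clec10a. They were chosen by name, and each has 1 row among the 24421 genes of the raw count files. The cells were live CD45+ leukocytes that carried Kaede and CD11b and lacked TER119 and NK1.1, sorted by FACS from subcutaneous tumours of MC38-Ova, a murine colon adenocarcinoma line that carries ovalbumin, grown in Kaede transgenic C57BL/6 mice. Violet light turns the Kaede protein of all host cells within such a tumour from green to red. Kaede-red cells had thus been in the tumour at labelling and Kaede-green cells had entered since. The 4 groups were Kaede-green and Kaede-red cells taken 24h or 72h after photoconversion, with 4 libraries each and 16 in all. The mice shared the transgene and the strain, every library carried the same control treatment and batch label, and no age was given in the labels. According to the study the libraries of a group came from tumours of independent mice, but whether a green and a red library with the same number came from the same tumour was not stated. CD11b is carried by several kinds of myeloid cell, so that a library is a mixture, and colour marks when a cell entered and not what it is.

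C-type lectin receptors are surface proteins with a carbohydrate-recognition fold. On monocytes, macrophages, dendritic cells and neutrophils they bind glycans and lipids of microbes and material from damaged cells. The activating members pass their signal to the kinase Syk and the adaptor Card9, either through an immunoreceptor motif in their own tail or through the partner proteins FcRγ, encoded by Fcer1g, and DAP12, encoded by Tyrobp. The inhibitory members carry an inhibitory motif that recruits phosphatases such as SHP-1, encoded by Ptpn6. Among the genes here Clec4e encodes Mincle, a receptor for mycobacterial cord factor and for a protein released from dead cells, and Clec4d encodes MCL, which pairs with Mincle. Clec4n encodes Dectin-2, which binds fungal mannans, and Clec7a encodes Dectin-1, the receptor for fungal β-glucan. Clec5a encodes MDL-1, which signals through DAP12. Clec4a2 encodes the inhibitory receptor DCIR, Clec4a1 and Clec4a3 its close relatives, and Clec12a the inhibitory receptor MICL. Clec10a encodes MGL1, an endocytic receptor for galactose-type sugars that is used as a marker of some macrophages and dendritic cells.

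In the mm10 genome, 9 of the 10 genes lie on chromosome 6 and Clec10a lies on chromosome 11. Clec4a1 (chr6:122921848-122934619), Clec4a3 (chr6:122952515-122969875), Clec4a2 (chr6:123106428-123143999), Clec4n (chr6:123229843-123247021), Clec4d (chr6:123262111-123275265) and Clec4e (chr6:123281789-123289870) form a cluster in this order. Clec12a (chr6:129342691-129365303) and Clec7a (chr6:129461591-129472779) lie close to each other further along, and Clec5a (chr6:40574894-40585821) lies far from both. Clec10a spans chr11:70156197-70170834. Clec4e, Clec5a and Clec7a are on the minus strand and the others are on the plus strand. No exon of any of the 10 genes overlapped an exon of another gene in the annotation, but 6.69% of the 50-base windows of Clec4a2 transcripts and 9.02% of those of Clec10a also occur in transcripts of other genes, among them the relatives Clec4a4 and Clec4b1 for Clec4a2 and Mgl2 for Clec10a. For Clec4n and Clec12a the shares were 0.69% and 0.40%. How reads from such windows were counted is not known, and their part in the values of these genes was not tested.

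The promoters of 3 genes that were lower in Kaede-red cells and of 1 that was higher are shown, because Clec4e and Clec4d moved together in these data and Clec4a1, in the same cluster, moved the other way. Each line holds the 250 bases before the RefSeq start of the gene on its own strand, in the GRCm38.p6 build. Capitals mark a GAGGAA match, the core bound by ETS factors such as PU.1, or in Clec4e also a TTGCNNAA match, a site type bound by C/EBP factors. Both strands were searched, so that GAGGAA also appears as TTCCTC.
Clec4e (chr6:123289872-123290121, minus strand): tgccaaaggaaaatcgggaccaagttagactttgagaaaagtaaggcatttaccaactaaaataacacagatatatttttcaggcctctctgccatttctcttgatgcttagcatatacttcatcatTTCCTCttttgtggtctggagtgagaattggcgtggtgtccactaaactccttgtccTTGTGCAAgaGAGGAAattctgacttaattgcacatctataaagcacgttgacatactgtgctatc
Clec4d (chr6:123261857-123262106, plus strand): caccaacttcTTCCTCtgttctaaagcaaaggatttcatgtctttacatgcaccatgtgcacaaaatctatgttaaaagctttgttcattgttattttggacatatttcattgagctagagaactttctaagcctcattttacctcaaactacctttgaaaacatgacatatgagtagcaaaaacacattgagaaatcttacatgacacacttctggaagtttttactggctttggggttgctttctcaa
Clec7a (chr6:129472780-129473029, minus strand): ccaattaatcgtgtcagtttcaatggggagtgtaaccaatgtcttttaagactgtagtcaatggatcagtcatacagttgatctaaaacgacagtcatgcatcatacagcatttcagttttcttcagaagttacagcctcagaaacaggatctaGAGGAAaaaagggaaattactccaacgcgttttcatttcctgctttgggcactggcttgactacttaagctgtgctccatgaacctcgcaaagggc
Clec4a1 (chr6:122921598-122921847, plus strand): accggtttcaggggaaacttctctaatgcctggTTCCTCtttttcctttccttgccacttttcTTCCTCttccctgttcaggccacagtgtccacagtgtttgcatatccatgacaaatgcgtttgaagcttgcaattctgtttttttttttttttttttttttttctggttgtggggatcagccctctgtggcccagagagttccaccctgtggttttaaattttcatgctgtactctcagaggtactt

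The Clec4e promoter held GAGGAA matches that began at positions -123 and -56 from the start and the C/EBP-type match at position -66, with no overlap between them. The Clec4d promoter held 1 GAGGAA match before the start, at -240, and 2 after it, at 8 and 40. The Clec7a promoter held 1 at -96, or -90 from its second listed start, and the Clec4a1 promoter held 2 at -217 and -187. GAGGAA occurs in 28.3% of all 32851 mouse promoters of the same 300-base length and TTGCNNAA in 10.8%, so such matches are common. Among the other genes, Clec5a held GAGGAA at -81 and -55 and Clec12a at -61 and -47, with a C/EBP-type match at -140. One of the 2 listed Clec4a3 promoters held GAGGAA at -50. The AP-1 site TGANTCA, present in 7.81% of promoters, was found in Clec12a at -213 and in Clec4a2 at 32, and no match to the kappa-B site, present in 4.51%, was found in the 10 promoter entries of the 8 genes that have one. Clec4n and Clec10a have no entry. Higher and lower genes thus both held GAGGAA in this window. These are matches of letters and no binding was measured.

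The values are reads counted on each gene, divided by library size after TMM scaling and given as CPM. Total counts were between 3216858 and 15423085 per library, of which the ribosomal RNA gene Rn45s took 79.0 to 93.4% in Kaede-green and 55.8 to 84.9% in Kaede-red libraries. This left 468092 to 912689 counts on all other genes in Kaede-green and 758192 to 5472477 in Kaede-red libraries, so that Kaede-green values are the less precise. All 10 receptor genes were among the 9642 genes tested. Macrophage markers moved with colour. Over both times 9 of 10 were higher in Kaede-red cells, where 10% of all tested genes were higher and 10.3% lower. Their summed level was 333 to 544 and 561 to 931 CPM in green and red cells at 24h. At 72h it was 394 to 487 and 952 to 1045 CPM. Of 7 monocyte markers, 4 were lower in Kaede-red cells over both times, where 10.3% of all tested genes were, and none was higher. Their summed levels were 1005 to 1654 and 497 to 629 CPM at 24h and 743 to 1145 and 523 to 791 CPM at 72h. At 24h 4 were lower, where 4.28% of all tested genes were, at a median log2 fold change of -1.37. At 72h 1 was lower, where 8.76% were, at a median of 0.23, and none was higher. In Kaede-red cells 3 rose from 24h to 72h, where 4.92% of all tested genes did. In the interaction 2 were called higher, where 0.757% were called. The 9 neutrophil markers in the files summed to 8.60 to 12.3 and 9.07 to 14.5 CPM at 24h and to 10.4 to 12.2 and 17.8 to 23.3 CPM at 72h. At 72h 1 of the 2 tested, Csf3r, was higher in Kaede-red cells, where 8.06% of all tested genes were. Retnlg and Ngp were at 0 in both Kaede-green groups and in Kaede-red cells at 24h. Conventional dendritic cell markers summed to no more than 14.6 CPM. The 5 fibroblast markers summed to 40.3 to 52.3 and 19.7 to 37.4 CPM at 24h and to 45.5 to 49.9 and 11.9 to 19.2 CPM at 72h. Of the 4 tested, 3 were lower in Kaede-red cells over both times, none at 24h and 4 at 72h. Of all tested genes 10.3, 4.28 and 8.76% were lower in these comparisons. The 3 endothelial markers had median sums of 14.1 and 21.9 CPM at 24h and 13.8 and 32.6 CPM at 72h. Over both times 2 of them were higher and 1 was lower in red cells, where 10% of all tested genes were higher and 10.3% lower. The part of the Rn45s share and of the mixture of cells in the values below was not tested. In these bulk samples fewer cells of a type and less RNA per cell cannot be told apart.

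**Figure D1:**
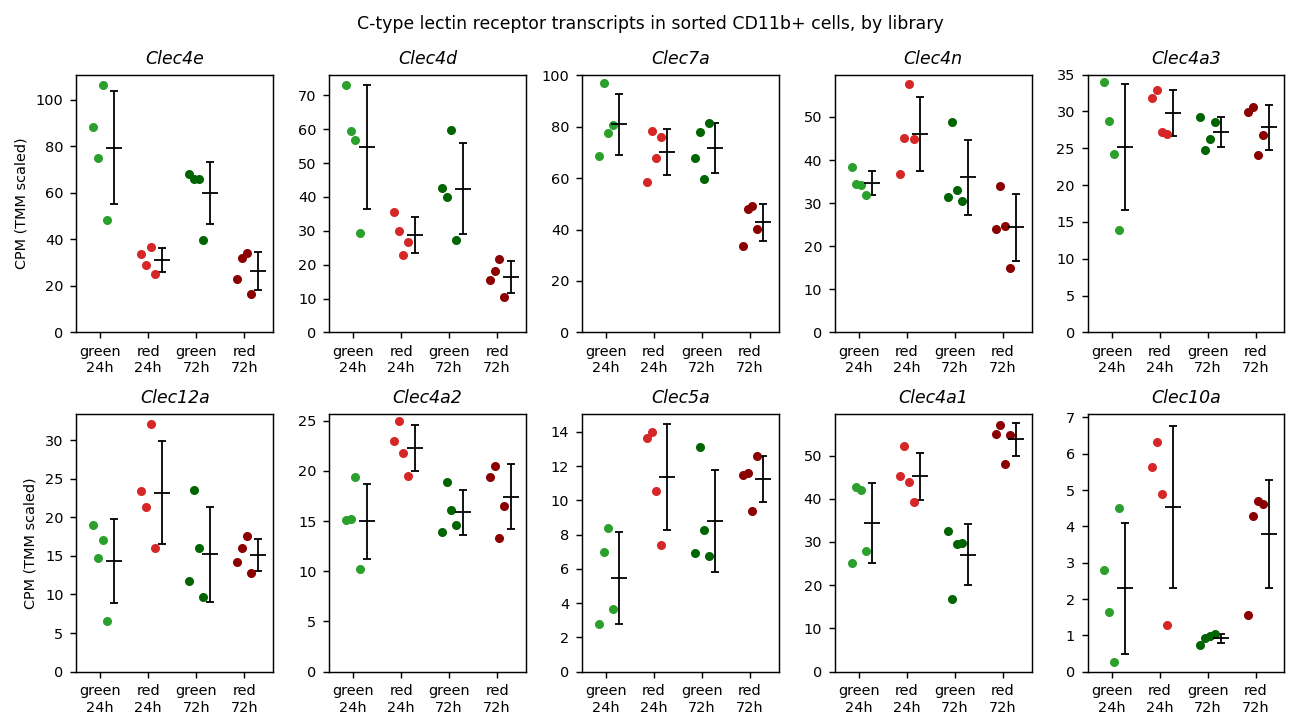
TMM-scaled CPM (vertical axes, each from 0) of the 10 receptor genes in each of the 16 libraries; points are libraries, and the bars to their right are the mean and SD of 4. All 8 Kaede-red libraries lie below all 8 Kaede-green libraries for Clec4e, whereas Clec4a1 is highest in Kaede-red cells at 72h, at 48.1 to 57.0 CPM.

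The first question was how the receptors differed between cells that had stayed in the tumour and cells that had entered it. Over both times, 6 of the 10 genes differed between Kaede-red and Kaede-green cells, 3 higher and 3 lower, where 20.3% of all tested genes were called, 10% higher and 10.3% lower (edgeR quasi-likelihood test, Benjamini-Hochberg adjusted p under 0.05 over all tested genes). The Mincle and MCL genes Clec4e and Clec4d were lower in Kaede-red cells by 1.28 and 1.15 on the log2 scale, and the Dectin-1 gene Clec7a was lower by less. The DCIR relative Clec4a1, Clec5a and Clec10a were higher. The median log2 fold change of the 10 genes was 0.24, beside 0.06 for all tested genes, so that the set as a whole had no common direction.

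Clec4e was at 88.1, 75.0, 106 and 48.3 CPM in the 4 Kaede-green libraries at 24h and at 33.8, 28.8, 36.7 and 25.2 CPM in the 4 Kaede-red libraries. At 72h it was at 68.0, 65.9, 65.9 and 39.8 CPM in Kaede-green and at 22.8, 31.7, 34.2 and 16.4 CPM in Kaede-red libraries. In TMM-scaled CPM all 8 red libraries lay under all 8 green libraries. Such a separation was found for 2.94% of tested genes, and in this direction for 1.74%. The log2 fold change was -1.28 ± 0.17 (SE) over both times (edgeR, adjusted p = 1.09e-06), -1.36 ± 0.24 at 24h (edgeR, adjusted p = 0.000337) and -1.20 ± 0.24 at 72h (edgeR, adjusted p = 0.000548). With libraries scaled by their counts outside Rn45s the log2 fold change was -0.52 over both times. The call at 24h was lost (-0.45, edgeR adjusted p = 0.0845). The colours then also overlapped at both times. Kaede-red 24h replicate 1 held 385 Clec4e counts per 1424714 outside Rn45s, above the 118 per 468092 of Kaede-green 24h replicate 4. Kaede-red 72h replicate 2 held 1259 per 5215621, above the 153 per 765051 of Kaede-green 72h replicate 4. Clec4e was the 1 member whose libraries separated completely by colour over both times in TMM-scaled CPM.

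Clec4d, the partner of Clec4e and its neighbour on the chromosome, was at 73.0, 59.4, 56.8 and 29.4 CPM in Kaede-green and at 35.5, 29.9, 22.9 and 26.6 CPM in Kaede-red libraries at 24h. At 72h the values were 42.8, 40.0, 59.8 and 27.3 CPM in Kaede-green and 15.6, 18.2, 21.6 and 10.5 CPM in Kaede-red libraries. The colours overlapped at 24h because Kaede-green replicate 4, at 29.4 CPM, was below 2 Kaede-red libraries, and did not overlap at 72h. The difference was -1.15 ± 0.18 (SE) over both times (edgeR, adjusted p = 1.23e-05), -0.92 ± 0.25 at 24h (edgeR, adjusted p = 0.0198) and -1.39 ± 0.25 at 72h (edgeR, adjusted p = 0.000192). The call at 24h was lost without Kaede-green replicate 1 (-0.77, edgeR adjusted p = 0.0882), without Kaede-red replicate 3 (-0.83, adjusted p = 0.0705) or without Kaede-red replicate 4 (-0.88, adjusted p = 0.0594). With libraries scaled by their counts outside Rn45s the difference at 24h was 0.015 and was not called (edgeR, adjusted p = 0.961).

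Clec7a stood at 68.6, 97.1, 77.7 and 80.6 CPM in Kaede-green and 58.5, 78.3, 67.7 and 76.1 CPM in Kaede-red libraries at 24h, with overlap. At 72h the Kaede-green libraries were at 68.0, 77.9, 59.6 and 81.4 CPM, all above the Kaede-red libraries at 33.6, 48.0, 49.0 and 40.3 CPM. The log2 fold change was -0.48 ± 0.13 (SE) over both times (edgeR, adjusted p = 0.00905), -0.21 ± 0.19 at 24h (edgeR, adjusted p = 0.582) and -0.75 ± 0.19 at 72h (edgeR, adjusted p = 0.00474). The difference between the 2 times was itself not called (interaction -0.54, 95% interval -1.08 to 0.00, edgeR adjusted p = 0.325). Without a filter on low counts the calls over both times and at 72h were lost (edgeR, adjusted p = 0.122 and 0.0515). With libraries scaled by their counts outside Rn45s the call at 72h was lost as well (-0.11, edgeR adjusted p = 0.689), and at 24h Clec7a was called higher (0.67, edgeR adjusted p = 0.00924).

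Among the genes that were higher in Kaede-red cells, Clec4a1 was at 25.1, 42.6, 42.0 and 27.8 CPM in Kaede-green and 45.3, 52.3, 43.9 and 39.2 CPM in Kaede-red libraries at 24h. At 72h it was at 32.5, 16.8, 29.4 and 29.7 CPM in Kaede-green and 55.0, 57.0, 48.1 and 54.9 CPM in Kaede-red libraries. The colours overlapped at 24h and lay apart at 72h. The log2 fold change was 0.68 ± 0.15 (SE) over both times (edgeR, adjusted p = 0.000901), 0.38 ± 0.21 at 24h (edgeR, adjusted p = 0.310) and 0.99 ± 0.21 at 72h (edgeR, adjusted p = 0.000984). The interaction was 0.61 with a 95% interval of 0.01 to 1.21 and was not called (edgeR, adjusted p = 0.318).

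Clec5a was a low transcript, at 2.79, 6.96, 8.41 and 3.68 CPM in Kaede-green libraries at 24h, from 5, 17, 33 and 9 counts, and at 13.6, 14.0, 10.5 and 7.37 CPM in Kaede-red libraries. At 72h it was at 6.94, 13.1, 8.27 and 6.76 CPM in Kaede-green and 11.5, 11.6, 9.38 and 12.6 CPM in Kaede-red libraries, with overlap at both times. The log2 fold change was 0.67 ± 0.21 (SE) over both times (edgeR, adjusted p = 0.0186), 0.97 ± 0.31 at 24h (edgeR, adjusted p = 0.0465) and 0.37 ± 0.27 at 72h (edgeR, adjusted p = 0.389). At 24h, 6 of the 8 fits that left out 1 library of the comparison lost the call, namely without Kaede-green replicates 1, 2 or 4 (0.79, 1.06 and 0.80, edgeR adjusted p = 0.144, 0.0570 and 0.130) or Kaede-red replicates 1, 2 or 3 (0.87, 0.87 and 1.00, edgeR adjusted p = 0.131, 0.136 and 0.0698).

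Clec10a was the least abundant member. Kaede-green libraries held 5, 4, 1 and 11 counts at 24h and 2, 3, 4 and 4 counts at 72h, which gave 0.255 to 4.50 and 0.731 to 1.04 CPM. Kaede-red libraries were at 5.62, 6.32, 4.90 and 1.29 CPM at 24h and at 1.57, 4.29, 4.69 and 4.61 CPM at 72h, all above Kaede-green at 72h. The log2 fold change was 1.54 ± 0.41 (SE) over both times (edgeR, adjusted p = 0.00655), 1.08 ± 0.56 at 24h (edgeR, adjusted p = 0.273) and 2.00 ± 0.60 at 72h (edgeR, adjusted p = 0.0172). At 24h, leaving out Kaede-green replicate 3 gave 0.56 and leaving out Kaede-green replicate 4 gave 1.76. Without Kaede-green 72h replicate 2 the call at 72h was lost, with a log2 fold change of 1.98 (edgeR, adjusted p = 0.0526).

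The other 4 genes were not called over both times. Clec4a2 had a log2 fold change of 0.35 (95% interval 0.04 to 0.66, edgeR adjusted p = 0.102), Clec12a of 0.33 (-0.06 to 0.73, adjusted p = 0.237), Clec4a3 of 0.15 (-0.16 to 0.45, adjusted p = 0.536) and Clec4n of -0.08 (-0.39 to 0.24, adjusted p = 0.782). The 3 DCIR-type genes of the cluster therefore had values above 0 but only Clec4a1 was called, and whether Clec4a1 differed from Clec4a2 and Clec4a3 was not tested. With at least 10 counts in every library, which 3084 genes passed, Clec4a2 was called over both times (0.42, edgeR adjusted p = 0.0169) and at 24h (0.67, edgeR adjusted p = 0.0186). Clec4a3 ranged over 13.9 to 34.0 CPM in Kaede-green and 24.0 to 33.0 CPM in Kaede-red libraries.

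**Figure D2:**
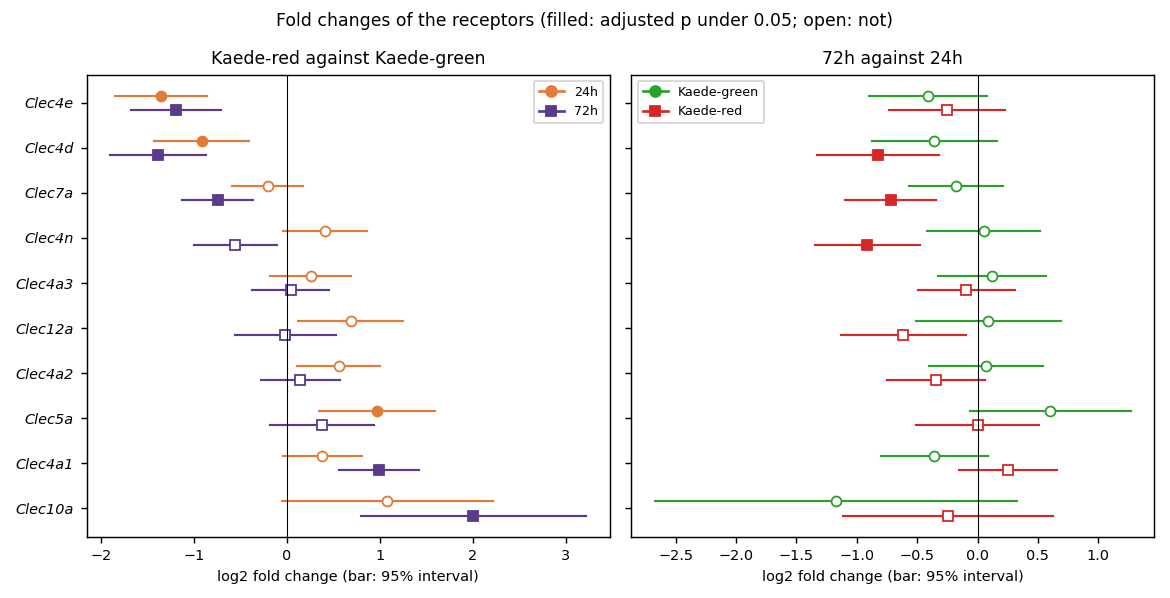
Log2 fold changes (horizontal axes) of the 10 genes with 95% intervals, for Kaede-red against Kaede-green cells at each time (left) and for 72h against 24h in each colour (right); filled symbols had an adjusted p under 0.05. Clec4e and Clec4d lie below 0 at both times on the left, and in Kaede-red cells Clec4d, Clec7a and Clec4n lie below 0 on the right.

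At 24h, 3 of the 10 genes differed between the colours, Clec5a higher and Clec4d and Clec4e lower, where 7.5% of all tested genes were called, 3.22% higher and 4.28% lower. The libraries did not overlap for Clec4e and for Clec4a2, where 12.5% of all tested genes did not overlap, 7.09% with red above green and 5.43% with red below. Clec4a2 was at 15.1, 15.2, 19.4 and 10.2 CPM in Kaede-green and 23.0, 24.9, 21.8 and 19.4 CPM in Kaede-red libraries, the closest pair being Kaede-green replicate 3 and Kaede-red replicate 4. Its log2 fold change of 0.56 ± 0.22 (SE) was not called (edgeR, adjusted p = 0.124). Clec12a had a value of 0.69 ± 0.28 (SE) at 24h (edgeR, adjusted p = 0.140).

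At 72h, 5 genes differed, Clec4a1 and Clec10a higher and Clec4d, Clec4e and Clec7a lower, where 16.8% of all tested genes were called, 8.06% higher and 8.76% lower. These 5 were also the members without overlap between the colours, as was found for 22.6% of all tested genes, 13% with red above green and 9.52% with red below. Clec4n was at 31.4, 48.9, 33.1 and 30.4 CPM in Kaede-green and 24.0, 34.0, 24.7 and 14.9 CPM in Kaede-red libraries at 72h, with overlap through Kaede-red replicate 2. Its log2 fold change was -0.56 ± 0.22 (SE, edgeR adjusted p = 0.0777), and it was called without that library (-0.77, edgeR adjusted p = 0.0242), with at least 10 counts in every library (-0.55, edgeR adjusted p = 0.0404), with a replicate block (-0.58, edgeR adjusted p = 0.0479) and with a replicate block within time (-0.59, edgeR adjusted p = 0.0281).

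The second question was whether the receptors changed between the times within each colour. In Kaede-green cells none of the 10 genes was called, as none of the 9642 tested genes was (0%, edgeR), where 835 had an unadjusted p under 0.05 and DESeq2 called 12. The log2 fold changes of the members lay between -1.17 (Clec10a, 95% interval -2.67 to 0.33) and 0.60 (Clec5a, -0.06 to 1.27). Without Kaede-green 24h replicate 4 the value of Clec10a was -0.49 and without replicate 3 it was -1.69. Clec4e had a value of -0.41 (-0.90 to 0.08) and Clec4d of -0.36 (-0.88 to 0.16).

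In Kaede-red cells, 3 of the 10 genes were lower at 72h than at 24h and none was higher, where 8.68% of all tested genes were called, 4.92% higher and 3.76% lower. All 3 bind microbial ligands and act through Syk, but so does Clec4e, which was not called, and no such common trait was tested. Clec4n fell from 36.8, 45.0, 57.7 and 44.8 CPM to 24.0, 34.0, 24.7 and 14.9 CPM, a log2 fold change of -0.91 ± 0.21 (SE, edgeR adjusted p = 0.00776). Clec7a and Clec4d, with the values given above, fell by 0.72 ± 0.19 (SE, edgeR adjusted p = 0.0144) and 0.82 ± 0.25 (SE, edgeR adjusted p = 0.0335) on the log2 scale. For each of the 3, every library at 72h was below every library at 24h, as was found in either direction for 20.6% of all tested genes, with 11.8% higher and 8.76% lower at 72h. Clec4e had a value of -0.25 (95% interval -0.73 to 0.23, edgeR adjusted p = 0.585), and Clec12a of -0.61 (-1.13 to -0.10, edgeR adjusted p = 0.132). Whether Clec4e or Clec12a differed from the 3 called genes was not tested. Clec12a was called lower in the fit of only the groups compared (-0.61, edgeR adjusted p = 0.0352) and with at least 10 counts in every library (-0.68, edgeR adjusted p = 0.0420).

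These calls depended on single libraries and on the processing. Clec4d lost its call in 7 of 8 fits that left out 1 library, namely without Kaede-red 24h replicates 1, 2, 3 or 4 (edgeR adjusted p = 0.101, 0.0760, 0.0585 and 0.0703) or Kaede-red 72h replicates 1, 2 or 4 (edgeR adjusted p = 0.110, 0.0568 and 0.149), with log2 fold changes between -0.89 and -0.65. Clec7a lost it without Kaede-red 24h replicates 2 or 4 (-0.65 and -0.67, edgeR adjusted p = 0.0530 and 0.0557) or Kaede-red 72h replicate 1 (-0.62, edgeR adjusted p = 0.0895). Clec4n lost it without Kaede-red 24h replicate 3 (-0.77, edgeR adjusted p = 0.0566). Clec7a also lost it with no filter on low counts (-0.64, edgeR adjusted p = 0.0612) and Clec4d with thinned Kaede-red libraries (-0.77, edgeR adjusted p = 0.0711).

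No member passed the test of a change in the red-green difference between the times, which 0.757% of all tested genes did. The value furthest from 0 was that of Clec4n, whose difference was 0.41 at 24h and -0.56 at 72h, an interaction of -0.96 ± 0.31 (SE, edgeR adjusted p = 0.116). For Clec4e the interaction was 0.16 (95% interval -0.52 to 0.85) and for Clec4d -0.47 (-1.19 to 0.25).

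Ratios between members within a library do not depend on how the libraries are scaled. These ratios were chosen after the values were seen and are given as a description. The ratio of Clec4e to Clec4a1 counts was 1.74 to 3.51 in Kaede-green and 0.551 to 0.835 in Kaede-red libraries at 24h, and 1.34 to 3.93 and 0.299 to 0.711 at 72h. Every Kaede-green library thus held more Clec4e than Clec4a1 reads and every Kaede-red library fewer. The ratio of Clec4d to Clec4a1 was 1.06 to 2.91 and 0.521 to 0.783 at 24h and 0.921 to 2.38 and 0.191 to 0.450 at 72h, with no overlap between colours. The ratio of Clec4e to Clec4d, in contrast, had medians of 1.45, 0.958, 1.52 and 1.57 in the green and red groups at 24h and then at 72h, with libraries between 0.947 and 1.87. Clec4a1 was itself called higher, so the ratios to it combine opposite calls. Against Clec4n, not called over both times, the Clec4e ratio was 1.51 to 3.11 and 0.563 to 0.919 at 24h. At 72h it was 1.31 to 2.16 and 0.933 to 1.39, with overlap. The Clec4d to Clec4n ratio overlapped at both times, at 0.923 to 1.90 and 0.396 to 0.964 at 24h. At 72h it was 0.819 to 1.81 and 0.533 to 0.877.

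**Figure D3:**
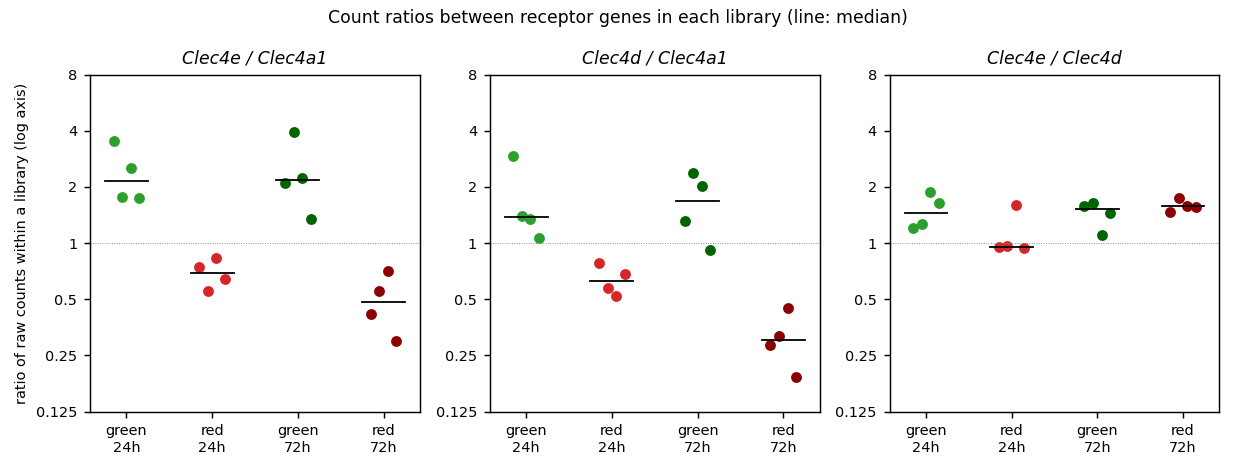
Ratio of raw counts between 2 receptor genes in each library (vertical axis, log scale), with the median of each group as a line. The Clec4e to Clec4a1 ratio is above 1 in every Kaede-green and below 1 in every Kaede-red library, whereas the Clec4e to Clec4d ratio lies between 0.947 and 1.87 in all libraries.

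Per length of transcript (RPKM), so that levels can be compared between genes, the member with the highest mean was Clec4d in Kaede-green cells, at 41.3 ± 13.8 RPKM (SD, n = 4) at 24h and 32.1 ± 10.1 RPKM at 72h, then Clec4n in Kaede-red cells at 24h, at 37.1 ± 6.96 RPKM, and Clec4a1 in Kaede-red cells at 72h, at 34.5 ± 2.49 RPKM. The SDs of the first and second genes overlapped in Kaede-green cells, where Clec7a came second at 35.4 ± 5.20 and 31.4 ± 4.32 RPKM, and in Kaede-red cells at 24h, where Clec7a was at 30.7 ± 3.95 RPKM. At 72h in Kaede-red cells the second gene, Clec4a3, was at 21.0 ± 2.29 RPKM. Clec10a was last in all 4 groups, at 0.366 to 1.81 RPKM on average.

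As a share of the summed RPKM of the 10 genes, Clec4a1 took 11.6 ± 2.61% (SD, n = 4) in Kaede-green cells at 24h, 16.5 ± 1.17% in Kaede-red cells at 24h, 10.4 ± 3.10% in Kaede-green cells at 72h and 26.0 ± 3.50% in Kaede-red cells at 72h. Clec4d took 21.2, 12.4, 18.8 and 9.21% on average and Clec4e 16.3, 7.02, 14.0 and 7.69% in the same order of groups. The sum itself was 191 ± 34.1, 176 ± 11.5, 169 ± 14.2 and 134 ± 15.6 RPKM. Unlike the shares, the sum depends on the TMM factors, which were 0.318 to 1.06 in Kaede-green and 1.19 to 3.85 in Kaede-red libraries. Whether its order of groups holds under another scaling was not tested. The RPKM values use the exonic length of each gene in the annotation and not the transcripts that these cells make.

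**Figure D4:**
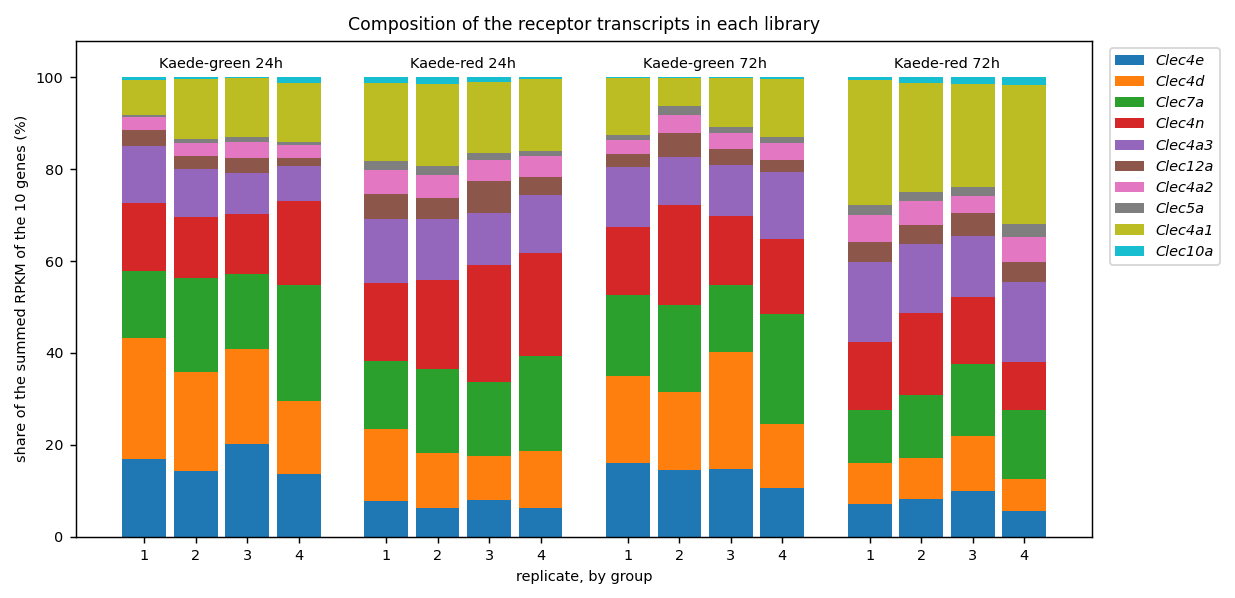
Share of each receptor gene in the summed RPKM of the 10 genes (vertical axis, percent), 1 bar per library and grouped by colour and time. The bottom segment, Clec4e, is thinner in all Kaede-red than in all Kaede-green libraries, at 5.61 to 9.94% against 10.6 to 20.3%, whereas the Clec4d shares of the colours overlap, and the Clec4a1 segment is widest in Kaede-red cells at 72h, at 22.6 to 30.4%.

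The orders of group means given here are those of TMM-scaled CPM and depend on that scaling. With libraries scaled by their counts outside Rn45s, Clec7a was called higher in Kaede-red cells at 24h (0.67, edgeR adjusted p = 0.00924). In the order of group means, Clec4e, Clec4d and Clec7a each ran from Kaede-green 24h through Kaede-green 72h and Kaede-red 24h to Kaede-red 72h. For Clec4e the only neighbours in this order whose libraries did not overlap were Kaede-green 72h and Kaede-red 24h, and for Clec4d and Clec7a they were Kaede-red 24h and Kaede-red 72h. Clec4a1 ran from Kaede-red 72h through Kaede-red 24h and Kaede-green 24h to Kaede-green 72h, with overlap between all neighbours. Clec4a2, Clec4a3 and Clec5a were each highest in Kaede-red cells at 24h and lowest in Kaede-green cells at 24h, again with overlap between all neighbours. Clec12a had a mean of 23.2 ± 6.70 CPM (SD, n = 4) in Kaede-red cells at 24h and 14.3 to 15.2 CPM in the other groups, also with overlap.

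Across the 16 libraries, which share the 4 groups and differ in depth, Clec4d and Clec4e had a Pearson correlation of log2 CPM of 0.91, and of 0.79 after the group means were removed. Clec4e and Clec12a had one of 0.02 over all libraries and 0.78 within groups, and Clec4a2 and Clec5a of 0.71 and 0.68. The 2 genes outside the 10 whose log2 CPM was most like that of Clec4e were the ribosomal protein genes Rpl24 (r = 0.96) and Rps9 (r = 0.95). For Clec4d they were Ssr3 (0.95) and Pomp (0.94), for Clec4a1 Atp6v1a, a subunit of the lysosomal proton pump, and Arid5b (both 0.92), for Clec7a Dnajc15 (0.90) and Ddx4 (0.89), and for Clec5a Ptms and Exoc7 (both 0.93). Clec10a was most like Mgl2 (0.86), its sequence relative, followed by Vps11 (0.80). For Clec4a3 they were Rftn1 and Alyref (both 0.93), for Clec4a2 Kpna4 (0.92) and Smu1 (0.88), for Clec4n Bcl2a1b (0.88) and Rap1b (0.87), and for Clec12a Ndfip1 and Bnip1 (both 0.86).

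The proteins that carry the signals of these receptors were read from a list of 28 genes, of which 26 were tested. The genes of this list and of the next 2 lists were read with TMM scaling only. Whether their directions hold under another scaling was not tested. Over both times the median of all tested genes was 0.06 with TMM scaling and 0.82 with scaling by counts outside Rn45s. Over both times 5 were higher and 3 lower in Kaede-red cells, where 20.3% of all tested genes were called, at a median log2 fold change of 0.18 beside 0.06 for all tested genes. Tyrobp, the DAP12 partner of Clec5a, was at 83.4 to 168 CPM in Kaede-green and 55.1 to 64.4 CPM in Kaede-red libraries at 24h, and at 72.0 to 115 and 35.6 to 55.4 CPM at 72h. No red library reached the lowest green library, with a log2 fold change of -1.10 ± 0.15 (SE, edgeR adjusted p = 1.48e-06), while Clec5a itself was higher. Fcer1g, whose product FcRγ partners Mincle, MCL and Dectin-2, had a value of 0.04 ± 0.14 (SE) and was not called. The other 2 lower genes were Src (-0.74) and Bcl10 (-0.59), the adaptor that joins Card9. The higher genes included Nfatc2 (1.66), a calcium-dependent transcription factor, Vav1 (0.62), and the phosphatase genes Inpp5d (0.52) and Ptpn6 (0.48), which act downstream of inhibitory receptors. Card9 itself, at no more than 3.05 CPM in any library, was not called (-0.19 ± 0.37, SE).

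At 24h only Tyrobp of the 26 was called, and was lower (-1.20), where 7.5% of all tested genes were called. At 72h 9 were higher and Tyrobp lower, where 16.8% were called. The higher genes at 72h included Nfatc2 (1.85), Inpp5d (1.11), Syk (0.89) and Vav1 (0.80). Between 24h and 72h in Kaede-red cells 9 rose and none fell, where 8.68% of all tested genes were called, with the largest rises in Inpp5d (1.16), Syk (1.05), Pik3cd (0.90), Pik3r5 (0.86) and Lyn (0.82), while Clec4d, Clec4n and Clec7a fell in the same libraries. The median of the 26 in this comparison was 0.45, beside -0.01 for all tested genes. None of the 26 was called between the times in Kaede-green cells or in the interaction.

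Of 38 other C-type lectin genes, 16 were tested, and over both times 5 of them were higher and 4 lower in the red cells, where 20.3% of all tested genes were called. The higher ones were Klrb1b (2.59), Mgl2 (2.10), the relative of Clec10a, Cd72 (1.99), Mrc1 (1.51), which encodes the mannose receptor, and Cd93 (1.43). Mgl2 and Klrb1b were at 0 to 9 counts in each Kaede-green library. Cd72 was at 7.81 to 11.7 CPM in Kaede-green and 45.2 to 55.8 CPM in Kaede-red libraries at 24h, and at 13.1 to 23.5 and 42.4 to 66.2 CPM at 72h. The lower ones included Cd69 (-1.11), Cd302 (-0.97) and Clec2d (-0.58). At 24h 4 were higher and 2 lower, where 7.5% of all tested genes were called, and at 72h 5 were higher and 2 lower, where 16.8% were. From 24h to 72h in Kaede-red cells 2 rose and 1 fell, where 8.68% were called. Cd93 (0.74) was among the genes that rose, and Clec2d (-0.64) fell. None was called between the times in Kaede-green cells. In the interaction 1 was called, with a value above 0, where 0.757% of all tested genes were called.

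Among 20 genes that signals through Syk and Card9 are known to induce in myeloid cells, 15 were tested. Over both times 3 were higher and 5 lower in Kaede-red cells, where 10% of all tested genes were higher and 10.3% lower. The lower genes were Il6 (-3.33), Ptgs2 (-1.15), Il1b (-0.93), Cxcl2 (-0.76) and Nlrp3 (-0.63). Il6 was at 7.25 to 15.5 CPM in Kaede-green and 0.264 to 1.23 CPM in Kaede-red libraries at 24h, and at 5.20 to 11.3 and 0.509 to 3.03 CPM at 72h. The 3 higher genes were Tnf (0.72), Cxcl3 (1.35) and Il12b. Cxcl3 had 0 to 6 counts in each Kaede-green library. Il12b had 0 to 2 counts in each Kaede-green library at 24h and 0 in all of them at 72h, against 3 to 30 and 0 to 39 counts in Kaede-red libraries, so that no fold is given. The list thus moved in both directions, with a median log2 fold change of -0.32. At 24h 4 were lower and none higher, where 4.28% of all tested genes were lower, and at 72h 4 were lower and Il12b higher, where 8.76% were lower and 8.06% higher. In Kaede-red cells Cxcl2 (-1.75) and Ptgs2 (-0.96) fell from 24h to 72h, where 3.76% of all tested genes fell. None was called between the times in Kaede-green cells or in the interaction. Many other receptors induce the same genes, and no link to the lectin receptors was tested.

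The direction of several values depended on how the libraries were scaled. When libraries were scaled by their counts outside Rn45s, the median of all tested genes moved to 0.82 over both times, and 7 receptor genes were higher and Clec4d and Clec4e lower. Clec7a then had a value of 0.28 (edgeR, adjusted p = 0.0895) and Clec4n one of 0.68 (edgeR, adjusted p = 0.000437). By construction such a change of scaling moves all genes by about the same amount. The values relative to the median of all tested genes therefore had to stay nearly the same, which is no check on the calls. Clec4e was at -1.34 by either scaling, Clec4d at -1.21, Clec7a at -0.54 and -0.55, and Clec4a1 at 0.63 and 0.62. When the Rn45s share of each library entered the fit as a covariate, no member was called in any comparison, and 156 of the 9642 tested genes were called over both times. Clec4e had then a value of -0.90 (edgeR, adjusted p = 0.140), Clec4d -1.02 (0.116), Clec7a -0.47 (0.443), Clec4a1 0.39 (0.614), Clec5a 0.26 (0.883) and Clec10a 0.70 (0.797). The Rn45s share differed with colour, so that this fit separates the 2 poorly.

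**Figure D5:**
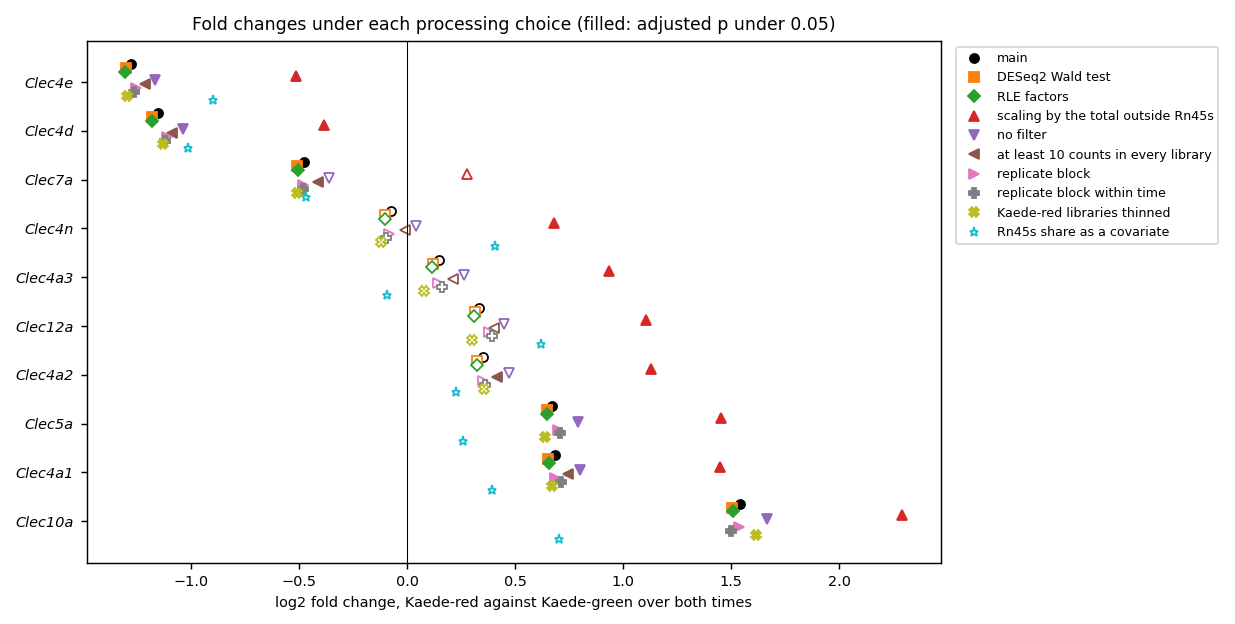
Log2 fold change of each receptor gene between the colours with both times together (horizontal axis) under each processing choice (symbols); filled symbols had an adjusted p under 0.05. Scaling by counts outside Rn45s moves all genes to the right, Clec7a to 0.28, and with the Rn45s share as a covariate no gene is filled.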

How the data were processed

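The 16 bulk RNA-seq libraries of sorted CD11b+ cells were grouped by the Kaede colour and time in their labels. Per the labels and the study, reads were trimmed with Trim Galore, checked with FastQC, aligned to mm10 with HISAT2 and counted on genes with featureCounts; the strand setting and annotation were not given in the sources used here. The deposited values are raw counts per gene by symbol. Libraries were made from total RNA, so that ribosomal RNA takes most counts and fewer are left for mRNA.

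Counts were tested with edgeR 4.0.16 (R 4.3.3) on the 9642 of 24421 genes kept by filterByExpr, with TMM scaling and the quasi-likelihood test, in 1 fit of 16 libraries with a mean for each group. P-values were adjusted over all tested genes by Benjamini-Hochberg and called under 0.05. The common dispersion was 0.0702. SEs are the fold change over the root of F. For log2 CPM the prior count was 2. The fit was also run on simulated counts, which took the TMM-scaled library sizes as true and so cannot test the choice of scaling. Positions and lengths came from GENCODE M21, and promoters from RefSeq (GRCm38.p6, 250 bases before and 50 after each start). No libraries were duplicates (lowest chi-square per gene 3.21, Kaede-red 24h replicates 1 and 2). In that group replicates 3 and 4 were at 5.66, and pairs across these 2 sets were at 33.5 to 78.4. The Rn45s share was 66.2 and 68.2% in replicates 1 and 2 and 83.1 and 84.9% in replicates 3 and 4.

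The members and lists were chosen with earlier results of these data known. All members were named, and from each list the called genes, at most 5 per direction, of which 2 are not reported here; the 2 most similar genes per member had the highest Pearson r. Alternatives were read for the members and not for the genes of the lists or the cell type markers. They were DESeq2 1.42.0, RLE factors, scaling outside Rn45s, no filter, at least 10 counts in every library, only the groups compared, replicate blocks, thinned Kaede-red libraries, the Rn45s share as a covariate and leaving out each library.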

Additional observations from a re-analysis of the deposited data

Results flagged for a closer look

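In 40 groups of 4 libraries (each member in each group), 4 had a library far from the other 3. There the gap to the nearest library, as a share of the group's range, was above Dixon's 95% critical value. Gap and range were taken on log2 CPM, so the shares do not follow directly from the CPM values given here. Chance flags about 1 in 20 such groups. Clec4e in Kaede-green cells at 72h was at 39.8 CPM in replicate 4 and at 65.9 to 68.0 CPM in the others (share 0.942), and Clec4a1 in the same group was at 16.8 CPM in replicate 2 and at 29.4 to 32.5 CPM in the others (share 0.848). Clec10a was at 1.57 CPM in Kaede-red 72h replicate 1 and at 4.29 to 4.69 CPM in the others (share 0.916), and at 1.29 CPM in Kaede-red 24h replicate 4 against 4.90 to 6.32 CPM (share 0.834). At 72h the 3 flagged libraries still lay on the same side of the other colour as their group, at 24h the flagged one lay within the range of Kaede-green libraries, and the calls over both times held without each of the 4.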

How the results depend on the processing

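Over both times the 3 higher and 3 lower members kept their calls in all 16 fits that left out 1 library (both counts 3 to 3), and under DESeq2, RLE factors, thinning and both replicate blocks. Leaving out 1 library gave 0 to 1 higher and 1 to 2 lower members at 24h, 1 to 2 higher and 3 to 4 lower at 72h, and 1 to 3 lower between the times in Kaede-red cells. In these fits values near 0 changed sign, with ranges of -0.18 to 0.014 for Clec4n over both times, -0.030 to 0.12 for Clec4a3 and -0.17 to 0.24 for Clec12a at 72h, -0.17 to 0.12 for Clec5a and -0.59 to 0.022 for Clec10a in Kaede-red cells with time, and -0.092 to 0.23, -0.089 to 0.27, -0.14 to 0.13 and -0.20 to 0.26 for Clec4a2, Clec4a3, Clec4n and Clec12a in Kaede-green cells with time. For Clec4e the interaction ran from -0.025 to 0.34.

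Scaling by counts outside Rn45s gave 7 higher members over both times, 8 higher and 0 lower at 24h, 5 higher and 2 lower at 72h and 1 lower interaction (Clec4n); by construction it moves all genes by the shift of the median. It turned Clec4n (0.68) and Clec7a (0.28) over both times, Clec4d (0.015) and Clec7a (0.67) at 24h, Clec4n (0.074) and Clec12a (0.62) at 72h, Clec5a in Kaede-red cells with time (-0.059) and the Clec4e interaction (-0.12). The Rn45s covariate gave 0 higher and 0 lower members in each red-green comparison and 0 lower with time in Kaede-red cells, and turned Clec4a3 (-0.10) and Clec4n (0.41) over both times, Clec4a3 (-0.24), Clec5a (-0.10) and Clec12a (0.31) at 72h and Clec5a with time in Kaede-red cells (-0.18). At 24h, 0 members were higher in the fit of only the groups compared and with thinned libraries, where the cause was not tested. With at least 10 counts in every library 3084 genes and 8 members remained, and 2 were higher at 24h (Clec4a2 and Clec12a), 1 higher at 72h and 1 lower in the interaction. Values near 0 also turned for Clec4a3 at 72h (DESeq2 -0.00255, RLE -0.00543, thinned -0.11), Clec12a at 72h (no filter 0.13, at least 10 counts 0.00013), Clec5a in Kaede-red cells with time (DESeq2 -0.052, RLE -0.050) and Clec4n over both times (no filter 0.040).

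The replicate numbers were not shown to pair green with red libraries. The correlations of same-numbered deviations were 0.08, 0.09, 0.05 and 0.15 at 24h and between -0.02 and 0.03 at 72h, and 2 of 8 libraries matched their own number best. With a replicate block Clec4n at 72h was called (-0.58, edgeR adjusted p = 0.0479), and with a replicate block within time both Clec4n at 72h (-0.59, edgeR adjusted p = 0.0281) and Clec12a at 24h (0.74, edgeR adjusted p = 0.0458), which gave 2 higher members there. Clec12a at 72h turned to 0.035 and 0.046 under these 2 blocks. Depth limits Clec10a and Clec5a most.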
